A study of Homo sapiens with 6 samples.

Results

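Translation initiation factors are the proteins that bring the ribosome, the initiator tRNA and the mRNA together at the start codon. RNA for these factors was measured in HaCaT cells, a spontaneously immortalized human keratinocyte line, in 3 wild-type (WT) and 3 *FGFR2* knockout (KO) cell lines, with 1 library per line. *FGFR2* encodes a receptor for fibroblast growth factors, and the series asks which genes differ with and without its signaling. All 6 lines grew in DMEM with 10% fetal bovine serum and received no other agent. The study's whole set of WT lines was the starting population and unedited clones. A legend of the study gives the sequenced HaCaT cells as 3 clonally expanded lines, without their line numbers. The KO lines were clones edited with CRISPR/Cas9 and a guide to exon 7 of *FGFR2*, so a difference between clones and an effect of the knockout cannot be told apart beyond the spread of 3 lines. The members were the protein-coding genes whose GENCODE symbol starts with EIF1 to EIF6. The 4 EIF2AK genes, which encode kinases of eIF2α and not initiation factors, were left out. This gave 52 of the 21475 genes measured. Of these, 48 passed a filter of a mean of at least 0.5 FPKM (fragments normalized for transcript length and library depth) and were tested; *EIF1AY*, *EIF4E1B*, *EIF4EBP3* and *EIF5AL1* did not pass.

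Initiation runs through a chain of factor complexes. eIF2 carries the initiator tRNA in its GTP form to the small ribosomal subunit, and eIF2B is the exchange factor that reloads eIF2 with GTP. eIF1, eIF1A and eIF3 sit on the small subunit, and eIF4E binds the mRNA cap. eIF4G is the scaffold that joins eIF4E to the helicase eIF4A, while the 4E-binding proteins, which mTORC1 phosphorylates, compete with eIF4G for eIF4E. eIF5 and eIF5B act at start codon selection and subunit joining. eIF5A, the hypusine-containing factor, acts mainly in elongation and termination, and eIF6 keeps the large subunit from joining too early. In keratinocytes, growth factor signals reach this machinery through the mTORC1 and MAP kinase pathways.

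All 7 keratinocyte markers were present, with a summed level of 10933 to 17760 FPKM in the WT and 14613 to 27288 FPKM in the KO libraries. Of 16 markers of fibroblasts, melanocytes, leukocytes and endothelial cells, 10 were below 1 FPKM in every library. The others were *VWF* (5.66 to 27.1 FPKM), *COL1A1* (6.82 to 16.7 FPKM), *CDH5*, *PMEL*, *CD14* and *LUM* (each at most 4.92 FPKM). The summed level of the 16 markers was 34.9 to 46.4 FPKM in WT and 14.6 to 30.1 FPKM in KO libraries, so the groups did not overlap, and its part in the results was not tested. The targeted gene *FGFR2* was at 21.6, 39.7 and 15.02 FPKM in WT and at 3.04, 2.26 and 4.31 FPKM in KO libraries. Its log2 fold change was −2.73 ± 0.36 (SE), yet its adjusted p in limma was 0.261, which was also the smallest adjusted p of any gene. The depth, estimated from the steps between low values, was 67800000 to 88100000 fragments per library. Mitochondrial transcripts took 21.5% to 27.6% of the summed FPKM in WT and 11.9% to 23.7% in KO libraries. Fewer cells of a type and less RNA per cell cannot be told apart in such bulk libraries.

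No initiation factor gene passed the test of KO against WT (limma on log2(FPKM + 0.5), Benjamini-Hochberg adjusted p ≤ 0.05, absolute log2 fold change ≥ 0.5). Among all 12241 genes tested, 0% passed as well. The study, which used DESeq2, did report genes that passed at the same limits, *FGFR2* among them. The 0% thus belongs to the test used here and does not show that no gene differed. At an unadjusted p ≤ 0.05 without a limit on fold change, 13 of the 48 members stood out, against 16.9% of all genes. With the fold change limit, 10 members (20.8%) had a higher mean in the KO lines, against 10.2% of all genes. These were *EIF1AX*, *EIF2S1*, *EIF2B3*, *EIF3B*, *EIF3I*, *EIF4A1*, *EIF4A3*, *EIF4EBP1*, *EIF5A* and *EIF5A2*. By the same limits, 0 members had a lower mean in KO lines, against 2.33% of all genes.

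The groups did not overlap for 16 members. In 14 members (29.2%), each of the 3 KO libraries lay above each of the 3 WT libraries, which held for 18.3% of all genes. In 2 members (4.17%), *EIF4B* and *EIF4EBP2*, each KO library lay below each WT library, against 5.77% of all genes. For a single gene the exact two-sided permutation test of 3 against 3 libraries cannot go below p = 0.1, the value of each of these 16 genes. The fitted fold change was above 0 for 36 of 48 members (75%), against 60.6% of all genes. The median log2 fold change was 0.19 over the members and 0.09 over all genes tested, with a range over the members from −0.48 to 0.95. KO replicate 3 was the highest of the 6 libraries in 30 members (62.5%), against 38.7% of all genes.

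**Figure D1:**
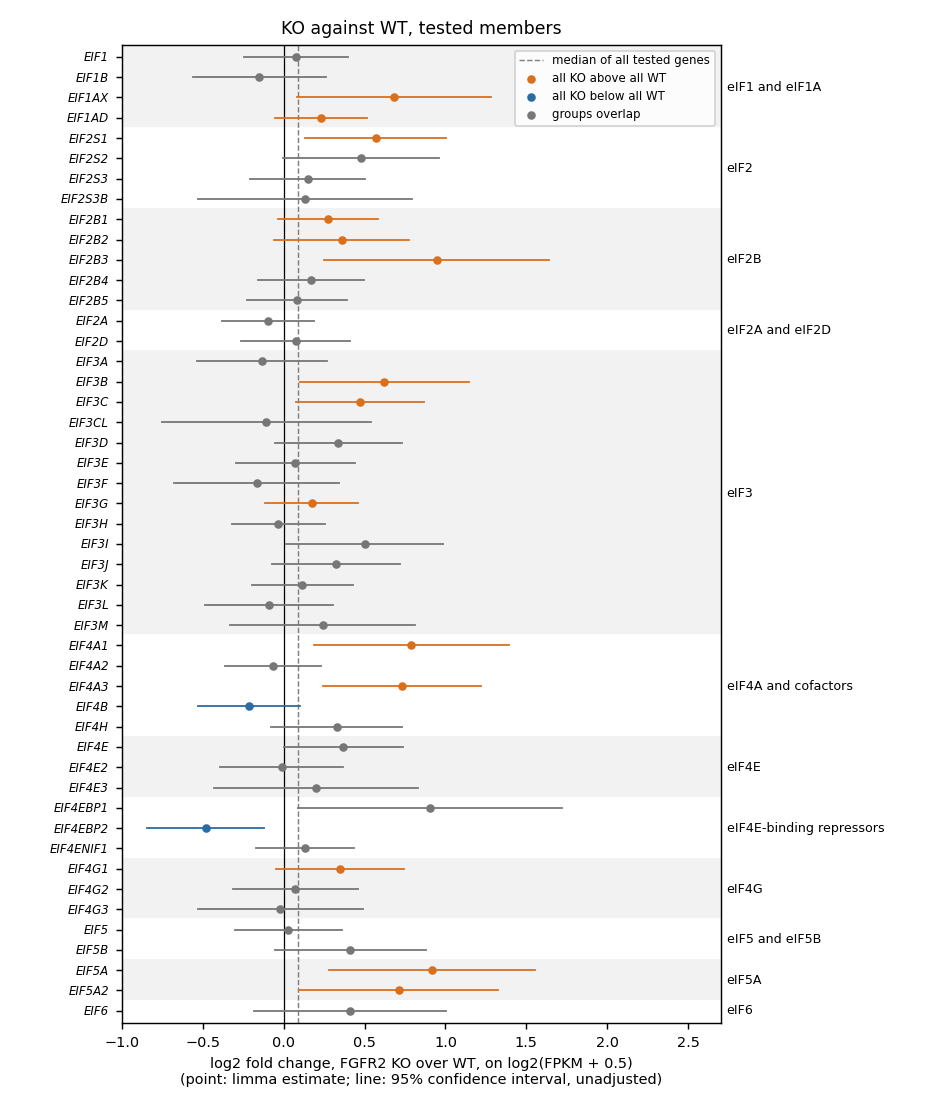
The log2 fold change of KO over WT (x axis, on the log2(FPKM + 0.5) scale) is shown for each of the 48 tested members, grouped by factor complex, as the limma estimate with its unadjusted 95% confidence interval. Orange points are the 14 members whose KO libraries all lay above the WT libraries, blue points the 2 whose KO libraries all lay below, and the dashed line is the median of all genes, 0.09.

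Part of this balance depended on how the libraries were scaled. With median-of-ratios scaling, in which the median log2 fold change of all genes was −0.02 in place of 0.09, 30 members were higher and 18 lower, and the median of the members was 0.08. The members without overlap were then 7 higher (14.6%, against 12.2% of all genes) and 5 lower (10.4%, against 11.2% of all genes), *EIF2A*, *EIF3H* and *EIF4A2* being added to the lower ones. Both shares lay near those of all genes. Over all genes the split at unadjusted p ≤ 0.05 and absolute log2 fold change ≥ 0.5 moved from 1251 higher and 285 lower to 785 higher and 521 lower. With mitochondrial transcripts left out of the scaling, 14 members (29.2%, against 15.5% of all genes) were higher without overlap, of which 10 were among the 14 above, and 3 (6.25%, against 7.77%) were lower. With the median change of each chromosome removed, 6 members (12.5%) were higher without overlap, against 12.6% of all genes. By this measure the higher share of the members was no longer seen. At the unadjusted limits, 7 members were higher in that setting (14.6%, against 6.22% of all genes) and 0 lower (against 4.02%). With median-of-ratios scaling, 7 were higher by those limits (14.6%, against 6.41%) and 1 lower (against 4.26%). *EIF1AX*, *EIF2S1*, *EIF3B*, *EIF4A1*, *EIF4A3*, *EIF4B* and *EIF4EBP2* kept groups that did not overlap under each of the 5 other scalings tried. The share of all genes that did so was not calculated, so this list has no background to be read against.

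Upstream sequences of 5 members are printed here, because they place the same short motif before genes of the cap-binding complex, its helicase branch and eIF2B that are described below. Each is the 250 bases before the transcription start in RefSeq (GRCh38.p14), written 5′ to 3′ on the strand of the gene, with each E-box (CACGTG, the core sequence bound by MYC and related factors) in capitals.
*EIF4E* (chr4:98929134-98929383, minus strand): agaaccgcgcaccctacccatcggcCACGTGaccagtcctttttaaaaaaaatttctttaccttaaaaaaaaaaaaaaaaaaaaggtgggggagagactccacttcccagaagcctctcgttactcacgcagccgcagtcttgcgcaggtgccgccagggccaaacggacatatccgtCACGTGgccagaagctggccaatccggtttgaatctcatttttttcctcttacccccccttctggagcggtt
*EIF4G1* (chr3:184314356-184314605, plus strand): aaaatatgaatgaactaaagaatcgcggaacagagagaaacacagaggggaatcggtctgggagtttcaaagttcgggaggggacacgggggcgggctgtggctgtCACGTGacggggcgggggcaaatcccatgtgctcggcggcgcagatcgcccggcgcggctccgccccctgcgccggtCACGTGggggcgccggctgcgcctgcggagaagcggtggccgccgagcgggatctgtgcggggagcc
*EIF4A3* (chr17:80147129-80147378, minus strand): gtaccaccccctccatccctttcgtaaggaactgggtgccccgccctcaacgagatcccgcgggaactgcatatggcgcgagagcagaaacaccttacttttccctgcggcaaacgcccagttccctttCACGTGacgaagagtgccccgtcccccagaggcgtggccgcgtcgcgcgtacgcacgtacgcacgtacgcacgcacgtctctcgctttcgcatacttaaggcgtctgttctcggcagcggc
*EIF2B3* (chr1:44986596-44986845, minus strand): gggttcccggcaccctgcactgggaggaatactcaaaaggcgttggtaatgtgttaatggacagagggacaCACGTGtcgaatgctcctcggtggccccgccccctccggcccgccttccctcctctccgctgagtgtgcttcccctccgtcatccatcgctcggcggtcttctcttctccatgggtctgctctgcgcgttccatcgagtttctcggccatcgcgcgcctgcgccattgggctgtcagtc
*EIF4B* (chr12:53006206-53006455, plus strand): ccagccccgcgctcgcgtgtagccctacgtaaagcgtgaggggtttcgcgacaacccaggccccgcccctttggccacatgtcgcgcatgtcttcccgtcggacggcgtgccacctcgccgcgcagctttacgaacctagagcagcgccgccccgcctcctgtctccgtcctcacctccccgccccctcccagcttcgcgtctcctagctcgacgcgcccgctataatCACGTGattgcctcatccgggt

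*EIF4E* and *EIF4G1* each held 2 E-boxes in this stretch, and *EIF4A3*, *EIF2B3* and *EIF4B* held 1 each. In *EIF4E* they began 225 and 72 bases before the start, in *EIF4G1* 144 and 67 bases before it. A promoter window of 300 bases (250 before and 50 after the start) was at hand for 42 members. The E-box, which reads the same on both strands, was found in 11 of these 42 (26.2%) and in 1298 of 14502 promoters of all genes (9%). The ETS motif CCGGAAG, searched on both strands, was also in 11 of 42 (26.2%), against 15.1% of all, and the cAMP response element TGACGTCA was in 0 of 42, against 2.9% of all. None of the 3 motifs contains another. Of the members that were higher in KO without overlap, 4 of the 12 with a window held an E-box, as did 7 of the other 30 members. *EIF4B*, which was lower in each KO library, also held one, whereas the windows of *EIF4A1* and *EIF5A*, which were higher, held none. A match describes the letters of the window and not a bound site.

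The levels spanned a wide range. *EIF4A1* was the highest member, with a mean of 922.9 FPKM over the 6 libraries, followed by *EIF4G2* (844 FPKM) and *EIF5A* (467 FPKM). At the low end of the tested members, *EIF2S3B* averaged 0.769 FPKM, *EIF5A2* 2.61 FPKM and *EIF3CL* 2.81 FPKM. FPKM values are per length, so these levels can be compared between genes. *EIF2S3B* and *EIF3CL* are near-identical copies of *EIF2S3* and *EIF3C*, and reads could be split between the copies, so their levels are uncertain. The ratio of the highest to the lowest library was a median of 1.2 over the WT and 1.33 over the KO libraries.

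**Figure D2:**
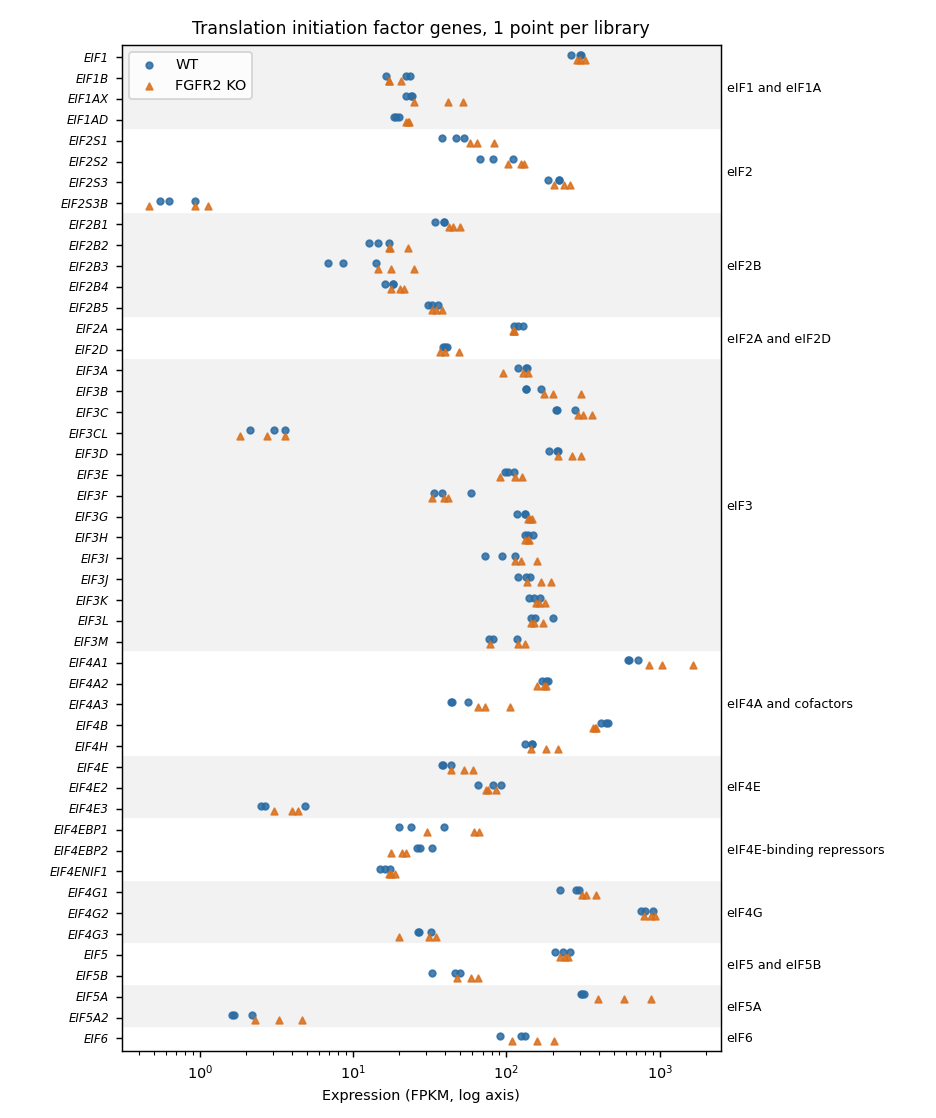
Expression (x axis, FPKM, log axis) of the 48 tested members is plotted by factor complex, with 1 circle for each WT library and 1 triangle for each *FGFR2* KO library. *EIF4A1* sits at the right with 626 to 1663 FPKM, and *EIF2S3B* at the left around 1 FPKM.

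In the helicase branch, the paralogues *EIF4A1* and *EIF4A2* differed in their values across the lines. *EIF4A1* (chr17:7572824-7579006, GRCh38, plus strand) encodes the main cytoplasmic eIF4A, the RNA helicase that unwinds the 5′ end of mRNAs. It was at 626, 721.5 and 633 FPKM in WT and at 1038, 856 and 1663 FPKM in KO libraries. Each KO library lay above the WT libraries, KO replicate 3 by far the most, and the log2 fold change was 0.79 ± 0.26 (SE, n = 3 per group, adjusted p = 0.261). *EIF4A1* shares its strand with the readthrough gene *SENP3-EIF4A1*, which is counted separately in the files, and reads could be split between them. Its paralogue *EIF4A2* was at 172, 186 and 180 FPKM in WT and at 177, 181 and 158 FPKM in KO libraries, with overlapping groups. The ratio of *EIF4A1* to *EIF4A2*, which does not depend on library scaling, was 3.65, 3.88 and 3.51 in WT and 5.87, 4.74 and 10.5 in KO libraries. The ratio was thus higher in each KO line than in each WT line, with KO replicate 2 the nearest to WT.

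*EIF4A3*, the eIF4A relative of the exon junction complex, was at 43.4, 56.3 and 44.3 FPKM in WT and at 72.9, 65.1 and 105.7 FPKM in KO libraries. Its groups did not overlap, and its log2 fold change was 0.73 ± 0.21 (SE, adjusted p = 0.261). *EIF4B*, a cofactor that stimulates eIF4A, was at 412, 463.5 and 444 FPKM in WT and at 380.5, 370 and 386 FPKM in KO libraries. All KO libraries lay below all WT libraries, by a small margin between the nearest of each group, with a log2 fold change of −0.21 ± 0.14 (SE, adjusted p = 0.436). *EIF4H*, a smaller cofactor with a related role, overlapped between groups, at 132 to 148 FPKM in WT and 145 to 216.5 FPKM in KO libraries. *PDCD4*, an inhibitor that binds eIF4A and is no member by the naming rule, was at 275, 369 and 229 FPKM in WT and at 108, 179 and 74.9 FPKM in KO libraries. Its KO libraries lay below all WT libraries, with a log2 fold change of −1.33 ± 0.32 (SE, adjusted p = 0.261). *PDCD4* lies on chromosome 10, and its groups still did not overlap with the median change of each chromosome removed (log2 fold change −1.18).

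The eIF5A pair had a median log2 fold change of 0.81, the highest of the factor groups. *EIF5A* (chr17:7306999-7312463, plus strand) was at 309.5, 306.3 and 322.1 FPKM in WT, a narrow spread, and at 589, 399 and 877 FPKM in KO libraries. All KO libraries lay above WT, and the log2 fold change was 0.92 ± 0.27 (SE, adjusted p = 0.261). Its paralogue *EIF5A2*, a low-level gene, was at 2.20, 1.62 and 1.66 FPKM in WT and at 3.26, 2.29 and 4.64 FPKM in KO libraries. The groups did not overlap here either, with KO replicate 2 just above WT replicate 1, and the log2 fold change was 0.71 ± 0.26 (SE, adjusted p = 0.267). The ratio of *EIF5A* to *EIF5A2* overlapped between groups, at 141 to 194 in WT and 174 to 189 in KO libraries. *EIF5AL1*, a near-identical copy of *EIF5A* that reads could be shared with, stayed below 0.2 FPKM in every library.

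*EIF4A1*, *EIF4A3*, *EIF5A* and *EIF1*, which helps to select the start codon, all lie on chromosome 17. When the median change of each chromosome was removed in each library, the log2 fold changes became 0.60 for *EIF4A1*, 0.55 for *EIF4A3* and 0.73 for *EIF5A*. The groups then overlapped for *EIF5A* but not for *EIF4A1* or *EIF4A3*. *EIF1* itself was at 301, 305 and 263 FPKM in WT and at 290.3, 300.1 and 324 FPKM in KO libraries, with overlapping groups. With chromosome medians removed, *EIF1* was instead lower in each KO library than in each WT library.

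**Figure D3:**
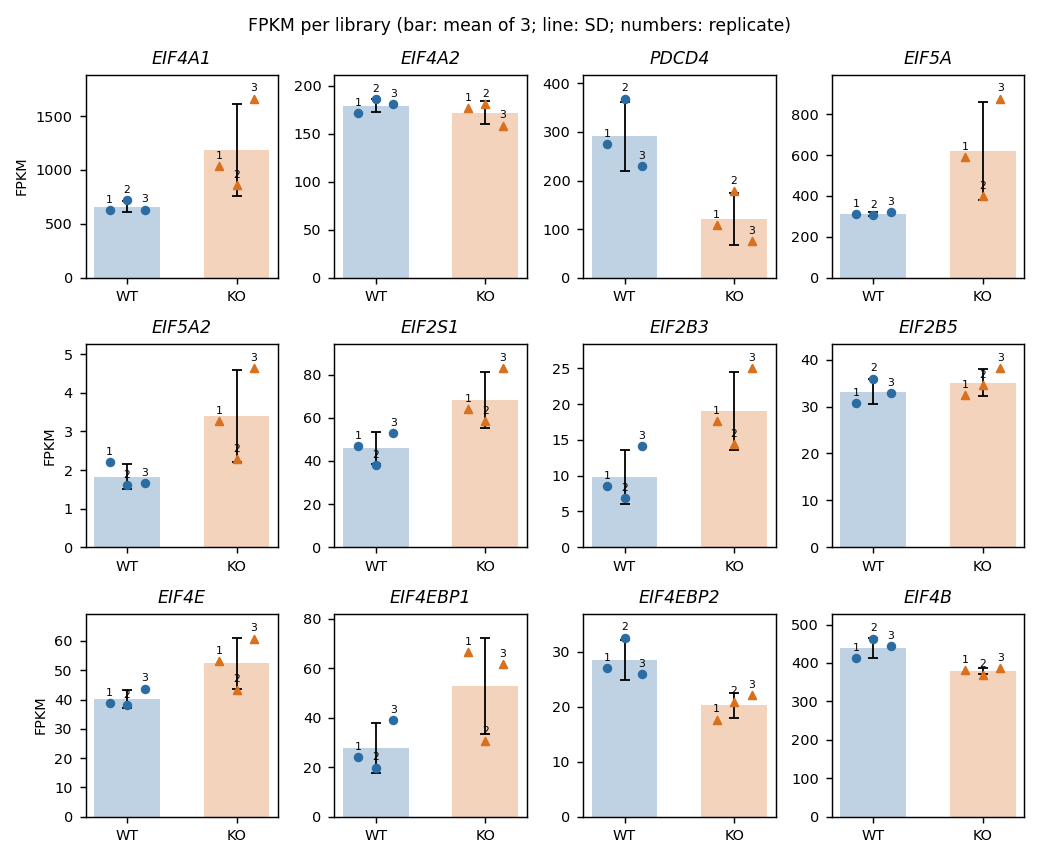
FPKM per library (y axis, linear from 0) are shown for 11 members and the eIF4A inhibitor *PDCD4*, with points numbered by replicate, bars at the mean of 3 libraries and lines for the SD. *EIF4A1* and *EIF5A* were higher in all KO libraries and highest in KO replicate 3, while *EIF4A2* lay between 158 and 186 FPKM in the 6 libraries.

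In the eIF2 complex, all 4 tested genes had a fold change above 0, against 60.6% of all genes. KO replicate 3 was the highest library in each of the 4, against 38.7% of all genes. The 4 include the low-level copy *EIF2S3B*, whose level is uncertain. *EIF2S1*, which encodes the α subunit whose phosphorylation shuts down most initiation, was at 46.7, 38.1 and 52.8 FPKM in WT and at 63.9, 58.3 and 83.0 FPKM in KO libraries. The groups did not overlap, and the log2 fold change was 0.57 ± 0.19 (SE, adjusted p = 0.261). *EIF2S2* (β subunit) was at 81.8, 67.0 and 111 FPKM in WT and at 125, 102 and 130 FPKM in KO libraries, and the groups overlapped. *EIF2S3* (γ subunit, which binds GTP) was at 187 to 222 FPKM in WT and 204.5 to 258 FPKM in KO libraries.

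Of the 5 eIF2B genes, 5 had a fold change above 0, against 60.6% of all genes, and 0 passed the test. In 3 of them (60%) the KO libraries were higher without overlap, against 18.3% of all genes. The groups of these 3 genes overlapped with median-of-ratios scaling. With chromosome medians removed, only *EIF2B3* among them still did not overlap. *EIF2B3*, the γ subunit, which is joined with *EIF2B5* in its catalytic core, was at 8.58, 6.82 and 14.1 FPKM in WT and at 17.7, 14.5 and 25.1 FPKM in KO libraries. KO replicate 2 lay just above WT replicate 3, and the log2 fold change was 0.95 ± 0.30 (SE, adjusted p = 0.261). *EIF2B5*, the catalytic ε subunit, was at 30.7, 36.0 and 32.9 FPKM in WT and at 32.5, 34.6 and 38.2 FPKM in KO libraries, with a log2 fold change of 0.08 ± 0.13 (SE, adjusted p = 0.772) and an interval from −0.23 to 0.39. The ratio of *EIF2B5* to *EIF2S1*, the exchange factor's catalytic subunit against the subunit of its substrate, was 0.658, 0.943 and 0.624 in WT and 0.509, 0.594 and 0.4603 in KO libraries. That ratio was lower in each KO line than in each WT line. The regulatory subunit genes *EIF2B1* and *EIF2B2* were higher in each KO library by small amounts, with log2 fold changes of 0.27 ± 0.13 (SE, adjusted p = 0.334) and 0.36 ± 0.18 (SE, adjusted p = 0.345). *EIF2B1* was at 39.4, 34.4 and 39.0 FPKM in WT and at 44.8, 42.0 and 49.8 FPKM in KO libraries. *EIF2B2* was at 14.6, 12.6 and 17.2 FPKM in WT and at 17.2, 17.3 and 22.9 FPKM in KO libraries, so the nearest libraries of its groups were almost equal. *EIF2B4* (δ subunit) overlapped, with 16.1 to 18.2 FPKM in WT and 17.6 to 21.5 FPKM in KO libraries.

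**Figure D4:**
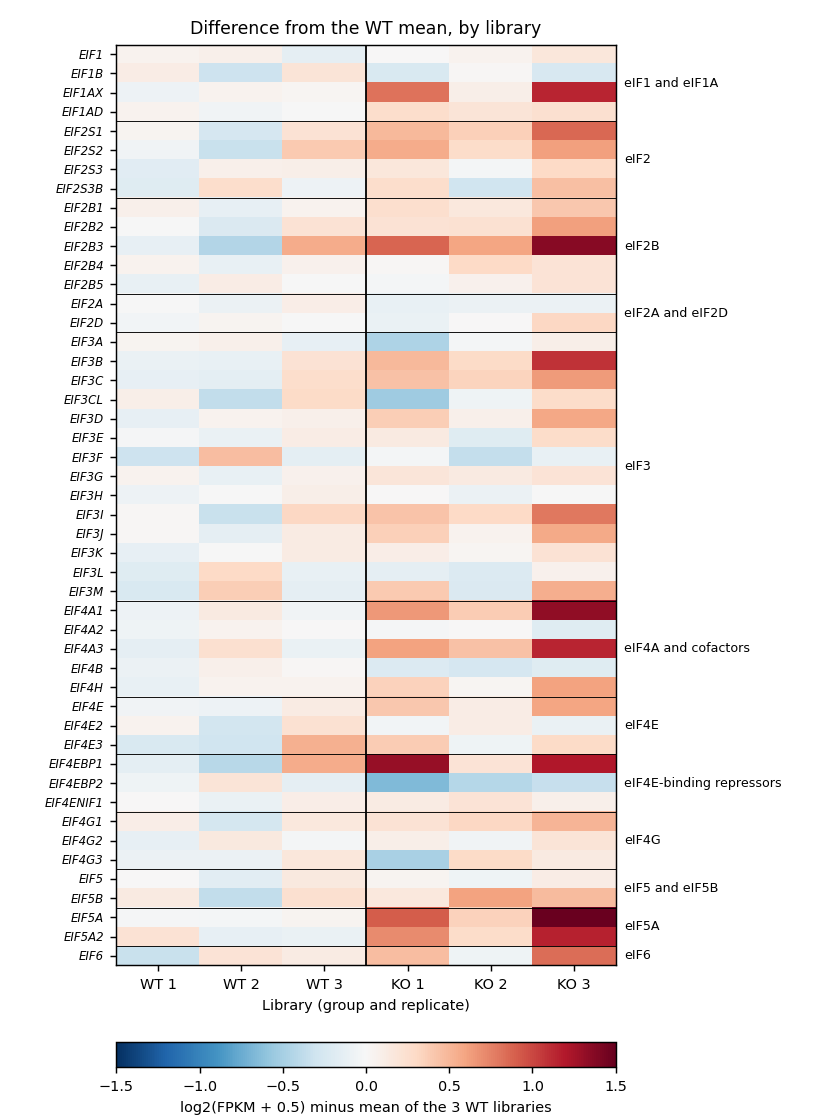
The color gives the difference of each library from the mean of the 3 WT libraries on the log2(FPKM + 0.5) scale, for the 48 tested members (rows, by complex) and 6 libraries (columns). The KO replicate 3 column is the reddest, with a median difference of 0.31 over the members, against 0.20 in KO replicate 1 and 0.07 in KO replicate 2.

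On the small subunit, *EIF1AX* encodes eIF1A, which holds the scanning complex open for the start codon. It was at 22.2, 24.3 and 23.9 FPKM in WT and at 41.6, 25.0 and 52.4 FPKM in KO libraries. KO replicate 2 sat almost at the WT level, whereas KO replicates 1 and 3 were clearly above it, and the log2 fold change was 0.68 ± 0.26 (SE, adjusted p = 0.269). *EIF1AX* has a near-identical Y-linked copy, and reads could be split between them. *EIF1AD*, which encodes a nuclear protein with an eIF1A-like domain, was at 19.9, 18.5 and 19.1 FPKM in WT and at 23.0, 22.0 and 22.7 FPKM in KO libraries. Its groups did not overlap, and its log2 fold change of 0.23 ± 0.12 (SE, adjusted p = 0.363) was small. *EIF1B*, a paralogue of *EIF1*, overlapped, at 16.4 to 23.5 FPKM in WT and 17.2 to 20.6 FPKM in KO libraries.

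eIF3, the largest factor, is a ring of subunits around the small ribosomal subunit. Of its 14 tested genes, 9 (64.3%) had a fold change above 0, a share near the 60.6% of all genes. The median log2 fold change was 0.14, against 0.09 over all genes. *EIF3B*, a core scaffold subunit, was at 134.0, 133.9 and 167 FPKM in WT and at 202.5, 176 and 306 FPKM in KO libraries. The groups did not overlap, and the log2 fold change was 0.62 ± 0.22 (SE, adjusted p = 0.261). *EIF3I*, which binds *EIF3B* in the same module, was at 93.5, 72.9 and 115 FPKM in WT and at 124, 113 and 159 FPKM in KO libraries. KO replicate 2 lay just below WT replicate 3, and the log2 fold change was 0.50 ± 0.21 (SE, adjusted p = 0.286). *EIF3C* was at 214, 211 and 281 FPKM in WT and at 318, 295 and 362.5 FPKM in KO libraries, without overlap, with a log2 fold change of 0.47 ± 0.17 (SE, adjusted p = 0.261). *EIF3G*, whose product contacts the mRNA, was at 131, 117 and 132 FPKM in WT and at 143, 139 and 146 FPKM in KO libraries, a small difference without overlap (log2 fold change 0.17 ± 0.12, SE, adjusted p = 0.488).

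*EIF3A*, the largest subunit, was at 134, 137 and 120 FPKM in WT and at 94.4, 128 and 138 FPKM in KO libraries. KO replicate 1 was the lowest and KO replicate 3 the highest of the 6 libraries, and the log2 fold change was −0.13 ± 0.17 (SE, adjusted p = 0.709). Without KO replicate 1 it was 0.03, and with chromosome medians removed it was 0.02. *EIF3A* lies on chromosome 10. The other eIF3 genes overlapped between groups, with *EIF3F* the most uneven among the WT lines (33.9, 58.4 and 37.9 FPKM).

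At the cap, *EIF4E*, the cap-binding protein and a limiting factor in many cells, was at 38.7, 38.2 and 43.7 FPKM in WT and at 53.2, 43.4 and 60.8 FPKM in KO libraries. KO replicate 2 lay just below WT replicate 3, and the log2 fold change was 0.37 ± 0.16 (SE, adjusted p = 0.296). *EIF4EBP1*, a repressor that binds eIF4E when mTORC1 is inactive, was at 24.0, 19.8 and 39.2 FPKM in WT and at 66.5, 30.6 and 61.7 FPKM in KO libraries. Both groups varied widely and overlapped through KO replicate 2, with a log2 fold change of 0.90 ± 0.35 (SE, adjusted p = 0.276). *EIF4EBP2*, its paralogue, had a lower mean in the KO lines, at 27.1, 32.6 and 25.9 FPKM in WT and at 17.7, 21.0 and 22.2 FPKM in KO libraries. All KO libraries lay below all WT libraries, and the log2 fold change was −0.48 ± 0.15 (SE, adjusted p = 0.261). *EIF4EBP2* lies on chromosome 10, and its log2 fold change was −0.33 with chromosome medians removed. Those of *PDCD4* and *EIF3A*, on the same chromosome, also moved up in that setting, to −1.18 and 0.02. The log2 fold change of the edited gene *FGFR2* moved from −2.73 to −2.58. Whether a shift along the chromosome in the KO clones has a part in these lower values was not tested.

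Within libraries, the ratio of *EIF4EBP2* to *EIF4E* was 0.701, 0.855 and 0.593 in WT and 0.333, 0.483 and 0.365 in KO libraries, without overlap. The ratio of *EIF4EBP1* to *EIF4E* overlapped, at 0.620, 0.520 and 0.896 in WT and 1.25, 0.703 and 1.02 in KO libraries. Summed over the 4E-binding protein genes, the ratio to *EIF4E* was 1.33, 1.38 and 1.497 in WT and 1.59, 1.19 and 1.38 in KO libraries. The summed ratio overlapped between groups, with a mean of 1.40 in WT and 1.39 in KO libraries. *EIF4EBP3* added little, with at most 0.377 FPKM, and lies on the strand of the readthrough gene *ANKHD1-EIF4EBP3*. *EIF4ENIF1*, which carries eIF4E into the nucleus, overlapped at 14.96 to 17.3 FPKM in WT and 17.0 to 18.6 FPKM in KO libraries. The cap-binding paralogues *EIF4E2* and *EIF4E3* overlapped as well, and *EIF4E1B*, known as a germline form, was listed at or near 0 in all libraries. Reads of *EIF4E3* could be split with another protein-coding gene model on its strand, which was counted separately.

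**Figure D5:**
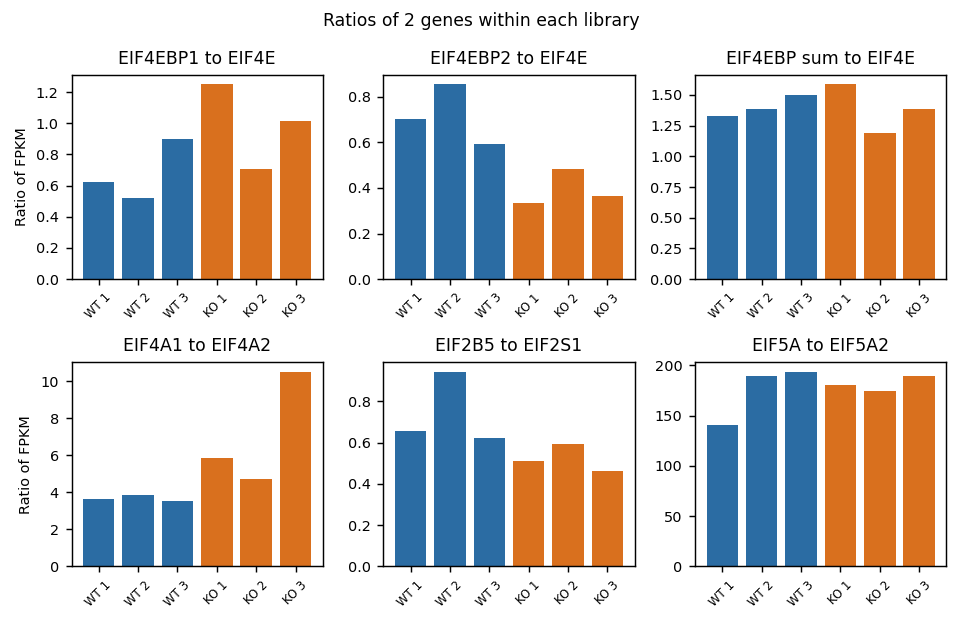
Bars give the ratio of the FPKM of 2 genes within each library (y axis, from 0), for 3 WT (blue) and 3 KO (orange) libraries. The ratio of *EIF4A1* to *EIF4A2* was higher in all KO libraries, those of *EIF4EBP2* to *EIF4E* and *EIF2B5* to *EIF2S1* were lower in all of them, and the other 3 ratios drawn overlapped. Further ratios were calculated and are not drawn. These were *EIF4G1* to *EIF4G2* and to *EIF4G3*, *EIF1* to *EIF1B*, and *EIF4E* to *EIF4E2* and to *EIF4E3*, and all of them overlapped.

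*EIF4G1*, the main scaffold, was at 286, 223.5 and 299 FPKM in WT and at 310.3, 331 and 382.5 FPKM in KO libraries. The groups did not overlap by a small margin, with a log2 fold change of 0.35 ± 0.17 (SE, adjusted p = 0.336). *EIF4G2*, an eIF4G relative that lacks the eIF4E-binding part, overlapped, at 756 to 908 FPKM in WT and 788.5 to 935 FPKM in KO libraries. *EIF4G3*, the other scaffold, was lowest in KO replicate 1 at 20.03 FPKM and otherwise at 26.6 to 34.8 FPKM.

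Among the last factors, *EIF5*, the GTPase activator for eIF2, was at 234, 209 and 259 FPKM in WT and at 241, 223 and 251 FPKM in KO libraries. Its log2 fold change was 0.03 ± 0.14 (SE, adjusted p = 0.928), with an interval from −0.30 to 0.36. *EIF5B*, the GTPase of subunit joining, overlapped at 32.8 to 50.1 FPKM in WT and 47.5 to 64.9 FPKM in KO libraries. *EIF6* was at 90.8, 132 and 125 FPKM in WT and at 157, 109 and 204 FPKM in KO libraries, with a log2 fold change of 0.41 ± 0.25 (SE, adjusted p = 0.429). KO replicate 2 lay within the WT range. *EIF6* shares its strand with another protein-coding gene model that was counted separately, and reads could be split between them. *EIF2A* and *EIF2D*, which can deliver tRNA without eIF2, overlapped, at 110.5 to 128 FPKM and 37.1 to 49.1 FPKM over the 6 libraries.

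Of 39 other genes of translation (elongation, termination and recycling factors, poly(A)-binding proteins, kinases and phosphatase subunits of eIF2α, helicases and upstream regulators), 0 passed the test. By the unadjusted limits used for the members, 6 (15.4%, against 10.2% of all genes) were higher and 2 (5.13%, against 2.33%) lower in KO lines. The higher ones included *ABCE1*, the ribosome recycling ATPase, at 40.8, 37.9 and 40.1 FPKM in WT and at 68.6, 47.6 and 104 FPKM in KO libraries. They also included *GSPT1*, which encodes the release factor eRF3a, with a log2 fold change of 0.50, and *RPTOR*, which encodes the mTORC1 subunit raptor, with 0.56 (SE 0.15, adjusted p = 0.261). *GSPT2* (log2 fold change 1.007, at 0.343 to 1.57 FPKM), *EEF1E1*, which encodes a scaffold of the tRNA synthetase complex (0.79), and *PABPC4* (0.52) were the others. Besides *PDCD4*, the lower one was *MKNK2*, a kinase of eIF4E, at 149, 203 and 163 FPKM in WT and at 133, 127 and 95.5 FPKM in KO libraries (log2 fold change −0.54 ± 0.19, SE, adjusted p = 0.261). The median log2 fold change of the 39 genes was 0.13.

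With libraries weighted by their estimated precision, 9 members passed the adjusted test, against 11.4% of all genes, among them *EIF4A1*, *EIF4A3*, *EIF5A*, *EIF2B3* and *EIF4EBP1*. In that fit WT replicate 1 had a weight of 10.3, against 0.358 to 1.495 for the other libraries, so 1 library carried most of the weight. Without KO replicate 3, 3 members (6.25%, against 4.4% of all genes) were higher at the unadjusted limits in place of 10. In that setting 1 member was lower, against 0.768% of all genes. Without WT replicate 2, 4 members (8.33%) were higher, a share close to the 8% of all genes.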

How the data were processed

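RNA was sequenced from 3 WT and 3 *FGFR2* KO HaCaT lines (TruSeq Stranded mRNA). The authors trimmed reads with fastp 0.20.0 and pseudoaligned them with kallisto 0.46.1 to GRCh38.p13. The deposited values are FPKM per gene. How they were calculated is not given in the sources used here. Symbols and positions come from GENCODE and promoters from RefSeq (GRCh38.p14). Low FPKM values were whole multiples of 1 fragment for 65.8% to 68.9% of values within 0.02, so whole reads were not recovered and no count tool was run.

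The 12241 genes that averaged 0.5 FPKM or more over the 6 libraries were tested with limma 3.58.1 (R 4.3.3, mean-variance trend) on log2(FPKM + 0.5), which understates changes of low genes, with Benjamini-Hochberg adjustment over all tested genes. The fit was tested on simulated data whose planted changes were larger than that of any member, so the test does not bear on changes of the members' size. Full values are given for members at unadjusted p ≤ 0.05 and absolute log2 fold change ≥ 0.5, members whose groups did not overlap, and *EIF2S1*, *EIF2B5*, *EIF3A*, *EIF4E*, *EIF4G1*, *EIF4A1*, *EIF4EBP1*, *EIF4EBP2*, *EIF5*, *EIF5A* and *EIF6* whatever their result. Other members named with values were chosen after these were seen. The members and lists were chosen with earlier results of these data known. *EIF1AY* is Y-linked and its level is not given. Alternatives covered pseudocount, filter, scaling, chromosome medians, library weights, a replicate block and leaving out each library. The p-values measure the spread between lines.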

Additional observations from a re-analysis of the deposited data

How the results depend on the processing

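With library weights, 1396 genes, 9 members and 4 of the other translation genes passed the adjusted test in place of 0 each, and *FGFR2* did so at a log2 fold change of −2.66. The 10 members at the unadjusted limits, counted in either direction, became 6 with quantile normalization. They became 4 to 14 when 1 library was left out (6 without WT replicate 1). With quantile normalization, 5 were higher (10.4%, against 6.56% of all genes) and 1 lower (against 4.1%). Without WT replicate 1, 5 were higher (10.4%, against 6.27%) and 1 lower (against 1.58%). Without WT replicate 2, 4 were higher (8.33%, against 8%) and 0 lower (against 1.32%). Without KO replicate 2, 13 were higher (27.1%, against 14.3%) and 1 lower (against 4.17%). The 14 members higher without overlap became 7 with median-of-ratios scaling, 7 with quantile normalization and 6 with chromosome medians removed (14.6%, 14.6% and 12.5%, against 12.2%, 12.9% and 12.6% of all genes), and 14 to 25 when 1 library was left out (24 without WT replicate 3 and 25 without KO replicate 2, or 50% and 52.1%, against 28.4% and 31.4% of all genes). The 2 lower ones became 5, 6 and 7 under the same 3 settings (10.4%, 12.5% and 14.6%, against 11.2%, 10.5% and 11.3% of all genes) and 2 to 4 when 1 library was left out (4 without WT replicate 2, 8.33% against 8.76% of all genes). Leaving out a library cannot make separate groups overlap, so the counts without overlap could only stay or rise there. *EIF2B5* turned to a log2 fold change of −0.032 with median-of-ratios scaling, −0.03 with quantile normalization and −0.03 with chromosome medians removed. *EIF3A* turned to 0.021 with chromosome medians removed and ranged from −0.242 to 0.031 when 1 library was left out (highest without KO replicate 1). *EIF5* turned to −0.084 with median-of-ratios scaling, −0.05 with nuclear scaling, −0.093 with quantile normalization, −0.043 with chromosome medians removed, and ranged from −0.049 (without WT replicate 2) to 0.106 when 1 library was left out, with −0.01 without KO replicate 3. The cause was not tested for any of these. The median over the members stayed above 0, at 0.16 to 0.28 when 1 library was left out and 0.08 with median-of-ratios scaling.

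WT and KO lines share replicate numbers, but the labels do not say that these pair them. The deviations of same-numbered libraries from their group means correlated at r = −0.21, 0.23 and 0.05. With 3 lines per group, such values cannot exclude a pairing. With a replicate block, 0 genes and 0 members passed, the smallest adjusted p was 0.0972 and the median over the members was 0.19. With 3 lines per group the smallest exact p for a gene is 0.1, and FPKM without counts limit what can be said of genes near 0.5 FPKM.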
